A study of Rattus norvegicus with 12 samples.

Results

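The genes described here are a set of cell cycle genes, followed in the resting liver of rats given either water or D-penicillamine. The set names 42 genes and is defined by gene name, though it was chosen with earlier results of these data known. A probe set belonged to it where the array annotation gave it exactly 1 of these names. A probe set is a group of short probes on the array that together measure 1 transcript. Of the 42 genes, 38 had such a probe set, out of 10411 genes named on the array, and these 38 genes were measured by 49 probe sets. Cdk2, E2f1, Rrm2 and Ccna2 had none and are not reported. By role, the measured set held 8 genes of the G1 cyclins and kinases (10 probe sets), 4 genes of inhibitors and the RB-E2F switch (5 probe sets), 10 genes of replication licensing and DNA synthesis (11 probe sets) and 16 genes of G2 and mitosis (23 probe sets).

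The samples were livers of 12 male Brown Norway rats, an inbred strain, that weighed 150 to 170 g. The 4 vehicle rats received water. The 8 treated rats received D-penicillamine, a thiol amino acid that binds copper, as 1 dose of 150 mg/kg in 1 mL of tap water by oral gavage. Livers of both groups were taken at 6 h. Each array held RNA of 1 rat, so the spread within a group is a spread between animals. Neither the age of the rats nor the hour of day of dosing is stated in the labels. The labels name no cell purification, so the tissue is whole liver. Treated rats are called D1 to D8 and vehicle rats V1 to V4, after the numbers in the labels.

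Most hepatocytes of an adult liver rest outside the cell cycle and can re-enter it after loss of tissue. D-type cyclins with Cdk4 and Cdk6 start this entry by phosphorylating the RB protein, which then releases E2F factors to switch on genes of DNA replication. A later wave, held down in resting cells by the DREAM complex at promoter elements such as the CHR and active through CCAAT boxes, supplies the cyclins, kinases and spindle proteins of G2 and mitosis. In resting liver, transcripts of this later wave can come from the few dividing cells of any type. In whole tissue, fewer dividing cells and less RNA per cell cannot be told apart.

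Signals are log2 values after RMA, a method that makes the arrays alike in their overall distribution, so 1 unit is a 2-fold step. Array medians lay between 6.30 and 6.35. The tissue label was borne out by 10 measured hepatocyte markers, whose mean signal was 13.06 to 13.27 in vehicle rats and 13.06 to 13.31 in treated rats. The 4 vehicle arrays went through the scanner ahead of the 8 treated ones, so scanning order cannot be told apart from treatment. Vehicle rat V3 stood apart in RNA quality, with a mean 3' minus 5' difference of the control probe sets of 1.185 against 0.43 to 0.605 in the 11 other rats. The groups differed in this measure by -0.18 (two-sided exact permutation test over 495 splits, p = 0.103, smallest possible 0.00202), or -0.019 without V3 (p = 0.63). Treated rat D4 stood apart too, as the lowest of the 12 rats in 22.5% of all probe sets. Where leaving out V3 or D4 moved the difference of a member described rat by rat by over 1.5 times, or took its unadjusted p across 0.05, the value without that rat is given beside it.

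The cell cycle set as a whole lay close to its vehicle level after D-penicillamine, and no member passed the test. In the limma fit over all 15866 probe sets, 0 of the 49 member probe sets had an adjusted p under 0.05 (background 0%, since no probe set of the array passed), and the smallest adjusted p among members was 0.715. At an unadjusted p under 0.05, 1 member probe set was higher after the drug, against 2.68% of all probe sets, and 4 were lower, against 3.48%. The higher one measured Cks2, and the lower ones measured Stmn1, Ccnb1, Top2a and Cdk4. The values of the 2 groups overlapped for all 49 member probe sets, while groups without overlap were seen in 0.195% of all probe sets on the higher side and 0.378% on the lower side. For 48 of the 49 (98.0%) the 95% interval held no change beyond 1.5-fold up or down, as it did for 98.6% of all probe sets. The exception was a probe set of Ccnd1.

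Small differences leaned to the lower side. The difference, treated minus vehicle, was negative for 33 member probe sets and positive for 16, so 67.3% were lower, against 50.8% of all probe sets. Its median was -0.034 on the log2 scale, with a range from -0.28 to 0.195, beside a median of -0.0025 over all probe sets. With 1 probe set per gene, 26 of 38 genes were lower and the median was -0.039. The lean was in the later waves of the cycle: the median difference was -0.080 for the replication genes (9 of 11 probe sets lower) and -0.045 for G2 and mitosis (18 of 23 lower), beside 0.033 for the G1 cyclins and kinases (4 of 10 lower) and 0.020 for the inhibitors and the RB-E2F switch (2 of 5 lower). It was also in the dimmer probe sets, since the 19 members with a mean signal above the median of the array had a median difference of 0.020 and the 30 dimmer ones a median of -0.053, where the same split of all probe sets gave -0.0063 and 0.0013. Brightness and role went together, since 17 of 23 probe sets of G2 and mitosis were dimmer, against 3 of 10 of the G1 cyclins and kinases. RMA gives no detection call, so whether the dimmest members were above background was not tested.

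**Figure D1:**
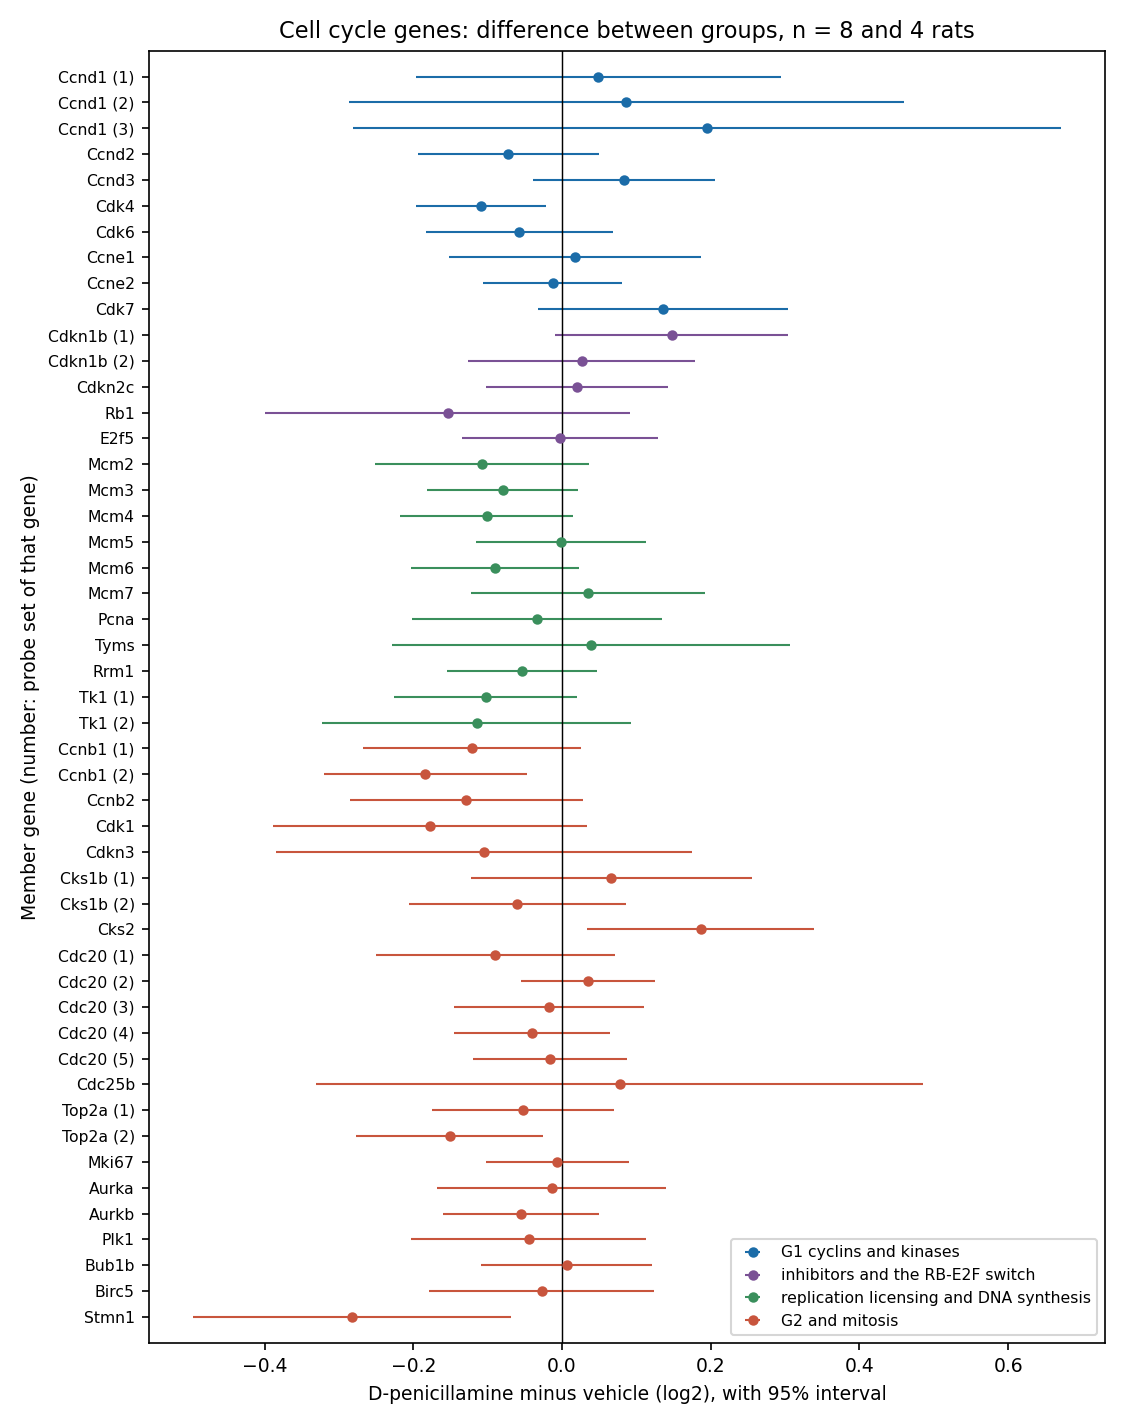
Difference between D-penicillamine (n = 8) and vehicle (n = 4) for each of the 49 member probe sets on the log2 scale (horizontal axis), with the 95% interval of the limma fit as a line, ordered and coloured by role; a number in brackets tells the probe sets of 1 gene apart. Most points of the replication and of the G2 and mitosis genes lie left of 0, and the intervals of 5 probe sets (Cdk4, Ccnb1, Cks2, Top2a and Stmn1) exclude 0 before adjustment.

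Among the G1 cyclins and kinases, which act before DNA synthesis, 1 of 10 probe sets had an unadjusted p under 0.05, that of Cdk4, on the lower side. Cdk4, the kinase partner of the D cyclins, had signals of 8.80, 8.75, 8.73 and 8.76 in V1 to V4, and from 8.58 through a median of 8.635 to 8.75 in the treated rats. All but D4 among the treated rats lay below the lowest vehicle rat, and D4 equalled V2. The difference was -0.11 (SE 0.041, unadjusted p = 0.0185, adjusted p = 0.745 in limma). It was -0.12 without D4 and between -0.12 and -0.095 on leaving out each rat in turn. Without V1 the unadjusted p in limma was 0.0589.

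Ccnd1, a D cyclin that is switched on when hepatocytes leave rest, varied more between rats than it differed between the groups. Its probe set 1383075_at had signals of 6.78, 8.02, 6.95 and 7.73 in V1 to V4, and from 6.96 through a median of 7.65 to 8.03 in the treated rats. V1 and V3 were low and V2 and V4 high, and D1 alone among the treated rats reached down to the level of V3. Probe set 1371643_at had signals of 7.93, 8.98, 8.47 and 8.84 in the vehicle rats, and from 8.28 through 8.655 to 8.98 in the treated rats. Probe set 1371150_at had signals of 7.65, 7.97, 7.46 and 7.89, and from 7.46 through 7.83 to 8.09. The groups overlapped throughout, with differences of 0.195 (SE 0.22, 95% interval -0.28 to 0.67), 0.086 (SE 0.17) and 0.049 (SE 0.11). The SD between vehicle rats was 0.60, 0.47 and 0.23 and that between treated rats 0.35, 0.27 and 0.21, where the medians over all probe sets were 0.081 and 0.106. The 3 probe sets gave the rats a similar order, with correlations of 0.70, 0.86 and 0.93 over the 12 rats, which share array and normalization between probe sets. The size and sign of the difference rested on single rats. Without V1 the first 2 differences were -0.0017 and -0.12. Without V3 the 3 were 0.055, 0.058 and -0.045, and without D4 the second was 0.13.

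**Figure D2:**
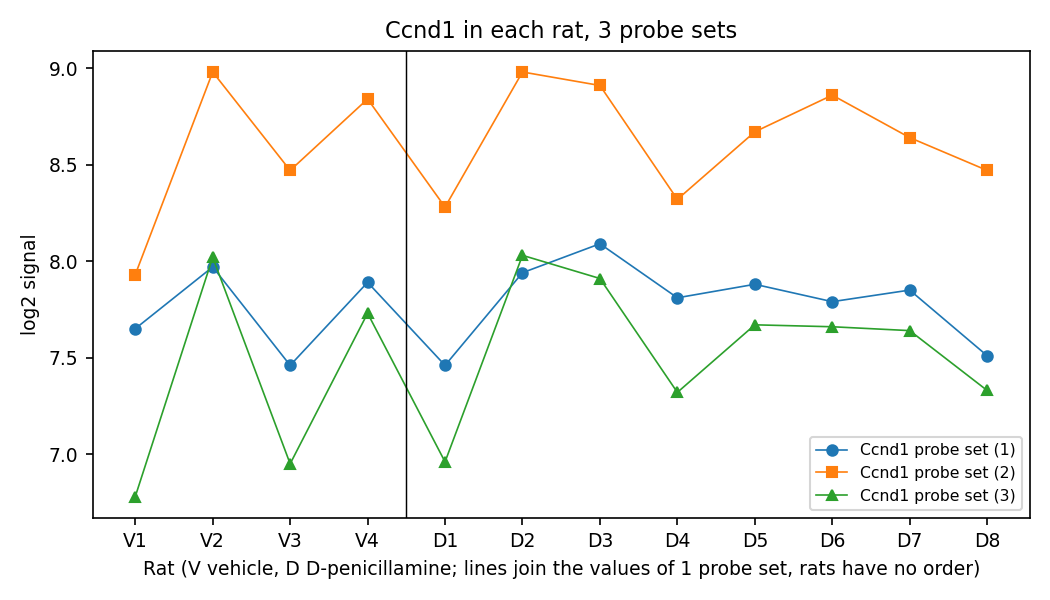
Log2 signal of Ccnd1 (vertical axis) in each of the 12 rats (V1 to V4 vehicle, D1 to D8 D-penicillamine) for its 3 probe sets, 1371150_at (1), 1371643_at (2) and 1383075_at (3). The 3 lines follow a similar course, with D1 low and V2 and D2 high on each, and part in places, as from D2 to D3; the heights of different probe sets cannot be compared.

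The other G1 members stayed near their vehicle levels. Ccnd2 and Ccnd3, the other D cyclins, differed by -0.073 (SE 0.057) and 0.084 (SE 0.057). Cdk6, the second kinase partner of the D cyclins, differed by -0.058 (SE 0.059). Ccne1 and Ccne2, the cyclins that carry cells into DNA synthesis, differed by 0.018 (SE 0.079) and -0.013 (SE 0.044). Cdk7, which activates the other cyclin-dependent kinases and also serves transcription, differed by 0.14 (SE 0.079, unadjusted p = 0.104) and 7 of 8 treated rats exceeded the vehicle mean.

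In the group of inhibitors and the RB-E2F switch, 0 of 5 probe sets had an unadjusted p under 0.05. Cdkn1b, an inhibitor of cyclin-dependent kinases that keeps cells at rest, had signals of 5.56, 5.72, 5.35 and 5.72 in V1 to V4 on probe set 1369192_at, and from 5.63 through 5.725 to 5.95 in the treated rats. All 8 treated rats lay above the vehicle mean while the groups overlapped. The difference was 0.15 (SE 0.074, unadjusted p = 0.0635), and 0.068 without V3, the lowest rat and the one that stood apart in RNA quality. Without V2 or V4 it was 0.19 (unadjusted p = 0.0311 and 0.0314 in limma). Its other probe set, 1373812_at, had signals of 6.91, 6.98, 7.11 and 7.07, and from 6.82 through 7.05 to 7.23, with no group standing higher. That difference was 0.026 (SE 0.072), or 0.057 without V3 and 0.058 without D4, and the probe sets correlated at 0.16 over the 12 rats, so they gave the rats a different order.

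Rb1, which encodes the RB protein, had signals of 5.40, 5.47, 5.47 and 5.53 in the vehicle rats, and from 4.80 through 5.33 to 5.61 in the treated rats. The lowest value was that of D4, and 3 treated rats lay above the vehicle mean. The difference was -0.15 (SE 0.12), or -0.080 without D4. Cdkn2c, an inhibitor of Cdk4 and Cdk6, differed by 0.020 (SE 0.057), and E2f5, an E2F factor that represses its targets with RB-like proteins, by -0.0025 (SE 0.062).

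The genes of replication licensing and DNA synthesis were lower in 9 of 11 probe sets, none at an unadjusted p under 0.05. Mcm2 to Mcm7 encode the helicase that is loaded at origins and unwinds DNA. Mcm6 had signals of 4.61, 4.82, 4.74 and 4.70 in V1 to V4, and from 4.49 through 4.62 to 4.73 in the treated rats, with 7 of 8 below the vehicle mean. The difference was -0.090 (SE 0.053, unadjusted p = 0.111). It was -0.056 without V2 and -0.126 without V1 (unadjusted p = 0.348 and 0.0432 in limma). Mcm4 lay below the vehicle mean in 8 of 8 treated rats, with a difference of -0.10 (SE 0.055, unadjusted p = 0.0834). Mcm2 and Mcm3 differed by -0.11 (SE 0.067) and -0.080 (SE 0.048), each with at least 6 of 8 treated rats below the vehicle mean. Mcm5 and Mcm7 differed by -0.0013 (SE 0.054) and 0.035 (SE 0.074), both within their error. Only Mcm7 among the helicase genes had a positive sign.

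Pcna, the sliding clamp of DNA polymerases, had signals of 7.96, 8.19, 8.20 and 8.09 in the vehicle rats, and from 7.86 through 8.095 to 8.31 in the treated rats. The treated rats spread on both sides of the vehicle rats, and the difference was -0.034 (SE 0.079), or -0.0038 without V3 and -0.0029 without D4. Among the enzymes that supply nucleotides, Tk1 and Rrm1 lay below the vehicle mean in at least 6 of 8 treated rats, and Tyms in 4. Tk1, thymidine kinase, differed by -0.10 (SE 0.058) and -0.12 (SE 0.097) on its 2 probe sets. Tyms, thymidylate synthase, differed by 0.039 (SE 0.13), and Rrm1, the large subunit of ribonucleotide reductase, by -0.054 (SE 0.047).

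The genes of G2 and mitosis held 4 of the 5 member probe sets with an unadjusted p under 0.05. Without V2 the unadjusted p of all 4 in limma was above 0.05. It was then 0.0706 for Stmn1, 0.0605 for Ccnb1, 0.0535 for Top2a and 0.0638 for Cks2. Stretches of promoter are printed for the genes on which the results below turn: Stmn1, Ccnb1, Top2a and Cks2, the 4 genes of those probe sets, Cdk1 and Cdkn3, which with Top2a form the pairs that varied together between rats, and Mcm6 as a replication gene for contrast. Each line gives the 150 bases that end just before the annotated gene start, on the strand of the gene, from the RefSeq annotation of the GRCr8 rat assembly. Capitals mark matches on either strand to the CHR (TTTGAA), the CCAAT box (CCAAT) and 4 forms of the E2F site, of which TTCCCGC is the first, TTGGCGC the second, TTCGCGC the third and TTGCCGC the fourth.

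Stmn1 (chr5:151965029-151965178, plus strand): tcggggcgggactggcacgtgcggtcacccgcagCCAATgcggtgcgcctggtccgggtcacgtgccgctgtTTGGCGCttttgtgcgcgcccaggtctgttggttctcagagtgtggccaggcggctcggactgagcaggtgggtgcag
Ccnb1 (chr2:33655226-33655375, minus strand): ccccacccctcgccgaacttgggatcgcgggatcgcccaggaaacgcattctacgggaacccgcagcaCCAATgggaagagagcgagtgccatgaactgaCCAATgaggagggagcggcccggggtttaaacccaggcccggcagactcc
Top2a (chr10:84473094-84473243, minus strand): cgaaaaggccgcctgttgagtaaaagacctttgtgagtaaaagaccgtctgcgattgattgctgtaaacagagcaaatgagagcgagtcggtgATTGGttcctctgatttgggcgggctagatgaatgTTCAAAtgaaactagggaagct
Cks2 (chr17:13727520-13727669, minus strand): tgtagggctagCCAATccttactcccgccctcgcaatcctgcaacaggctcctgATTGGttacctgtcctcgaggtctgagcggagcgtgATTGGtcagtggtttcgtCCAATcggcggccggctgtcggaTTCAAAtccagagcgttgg
Cdk1 (chr20:19265143-19265292, plus strand): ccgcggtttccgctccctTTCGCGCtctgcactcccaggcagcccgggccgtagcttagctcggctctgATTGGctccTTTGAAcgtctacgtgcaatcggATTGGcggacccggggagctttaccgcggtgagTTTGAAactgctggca
Cdkn3 (chr15:22502236-22502385, plus strand): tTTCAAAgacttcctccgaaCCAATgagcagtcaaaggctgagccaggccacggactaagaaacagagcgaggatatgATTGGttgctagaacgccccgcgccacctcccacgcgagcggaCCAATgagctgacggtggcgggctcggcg
Mcm6 (chr13:42404353-42404502, minus strand): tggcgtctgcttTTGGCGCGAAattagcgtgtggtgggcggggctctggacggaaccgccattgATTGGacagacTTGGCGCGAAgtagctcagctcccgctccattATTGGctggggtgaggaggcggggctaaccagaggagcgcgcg

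The windows of Stmn1 and Ccnb1 hold no CHR match in TTTGAA, the only form searched. That of Stmn1 holds 1 CCAAT box and 1 E2F match, and that of Ccnb1 holds 2 CCAAT boxes. The window of Top2a holds 1 CHR match and 1 CCAAT box, and that of Cks2 holds 1 CHR match and 4 CCAAT boxes. The window of Cdk1 holds 2 CHR matches, 2 CCAAT boxes and 1 E2F match, and that of Cdkn3 holds 1 CHR match and 3 CCAAT boxes. That of Mcm6 holds no CHR match, 2 CCAAT boxes and 4 E2F matches, which lie as overlapping pairs that read on opposite strands.

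Over the longer window from 250 bases before to 50 after the start, promoters were found for 31 of the 38 measured members. A CHR match lay in 11 of the 15 promoters of G2 and mitosis genes (73.3%), against 1 of 9 of the replication genes (11.1%), none of 4 of the G1 genes and 18.1% of all 27457 promoters in the annotation. The 4 promoters of G2 and mitosis genes without a CHR match were those of Stmn1, Ccnb1, Cdc25b and Aurka. Only the form TTTGAA was searched, so these promoters may hold a CHR of another form. A link between CHR matches and the differences was not tested. A CHR match together with a CCAAT box lay in 10 of the 15 (66.7%), against 7.25% of all promoters. CCAAT boxes lay in 13 of the 15 (86.7%) and in 6 of the 9 replication promoters (66.7%), against 37.7% of all. E2F matches were found in 7 of the 9 replication promoters (77.8%) and 4 of the 15 of G2 and mitosis (26.7%), against 10.0% of all. All 3 promoters of inhibitors and the RB-E2F switch held an E2F match, those of Cdkn1b, Cdkn2c and Rb1. These are matches of letters only, and both strands were searched.

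Stmn1, which takes microtubules apart and is on in dividing cells, had the difference of largest size among the members. Its signals were 7.17, 7.44, 7.08 and 7.11 in V1 to V4, and ran from 6.47 through a median of 6.95 to 7.08 in the treated rats. The highest treated rat, D7, equalled V3, the lowest vehicle rat, so the groups only touched, and D6 lay far below the rest. The difference was -0.28 (SE 0.10, a ratio of 0.822, unadjusted p = 0.0131, adjusted p = 0.715 in limma). It ranged from -0.32 to -0.20 on leaving out each rat in turn, the smallest size being without V2.

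Ccnb1, the cyclin that turns Cdk1 on at entry into mitosis, was measured by 2 probe sets. On 1370346_at the vehicle rats had 5.88, 6.06, 5.79 and 5.99, and the treated rats ran from 5.57 through 5.745 to 5.88. All 8 treated rats lay below the vehicle mean, and D1, the highest, equalled V1. The difference was -0.18 (SE 0.064, unadjusted p = 0.0120, adjusted p = 0.715). On 1370345_at the vehicle rats lay close together at 5.58, 5.54, 5.57 and 5.54, and the treated rats ran from 5.24 through 5.445 to 5.62, with D1 and D7 above all vehicle rats. That difference was -0.12 (SE 0.069, unadjusted p = 0.0988), and the probe sets correlated at 0.66 over the 12 rats. Ccnb2, the second mitotic B cyclin, had signals of 5.50, 5.47, 5.36 and 5.33, and from 5.08 through 5.33 to 5.46. Its difference was -0.13 (SE 0.074, unadjusted p = 0.101).

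Cdk1, the kinase of mitosis, had signals of 6.30, 6.27, 6.18 and 6.17 in V1 to V4. In treated rats D1 to D8 they were 6.20, 5.84, 5.91, 6.37, 6.15, 5.71, 6.09 and 6.15. The rats D2, D3 and D6 lay well below every vehicle rat, D4 above every vehicle rat, and the other 4 near them. The difference was -0.18 (SE 0.099, unadjusted p = 0.0929, adjusted p = 0.826), or -0.22 without D4 (unadjusted p = 0.0218), and the SD was 0.22 between treated rats against 0.065 between vehicle rats. Cdkn3, a phosphatase that acts on cyclin-dependent kinases, followed the same rats. Its signals were 5.32, 5.46, 5.20 and 5.28 in the vehicle rats and 5.28, 4.93, 5.04, 5.50, 5.39, 4.71, 5.29 and 5.54 in D1 to D8. D2, D3 and D6 were again the lowest, and the difference was -0.11 (SE 0.13, unadjusted p = 0.435).

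Top2a, the topoisomerase that untangles chromosomes, had signals of 4.70, 4.74, 4.71 and 4.71 in the vehicle rats on probe set 1388650_at, and from 4.45 through 4.535 to 4.78 in the treated rats. The vehicle rats lay within a narrow band, D4 lay above it and the other 7 treated rats below it. The difference was -0.15 (SE 0.059, unadjusted p = 0.0215, adjusted p = 0.747). On 1372186_a_at the vehicle rats had 4.99, 5.06, 4.95 and 4.92, and the treated rats ran from 4.76 through 4.925 to 5.09 with a difference of -0.053 (SE 0.057). Its probe sets correlated at 0.72.

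Mki67, which encodes the Ki-67 protein used to mark dividing cells, showed no lean. Its signals were 4.18, 4.22, 4.14 and 4.13 in the vehicle rats, and from 4.07 through 4.175 to 4.24 in the treated rats. These were among the dimmer values of the array, and the difference was -0.0063 (SE 0.045, 95% interval -0.10 to 0.090), or -0.015 without V3 and -0.018 without D4.

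Cks2, a small subunit of cyclin-dependent kinases, was the member on the higher side. Its signals were 6.79, 6.78, 7.00 and 6.83 in V1 to V4, and ran from 6.78 through a median of 7.045 to 7.16 in the treated rats. D2 equalled the lowest vehicle rat, V3 lay among the treated rats, and 7 of 8 of these exceeded the vehicle mean. The difference was 0.19 (SE 0.071, a ratio of 1.14, unadjusted p = 0.0200, adjusted p = 0.747), and 0.24 without V3. It was 0.17 without V1 and 0.16 without V2 (unadjusted p = 0.0596 and 0.0638 in limma). Cks1b, its close relative, had signals of 8.59, 8.82, 8.53 and 8.83 on 1371480_at, and from 8.47 through 8.82 to 8.96, with a difference of 0.066 (SE 0.089), or 0.012 without V3. On 1376346_at it had 6.43, 6.58, 6.39 and 6.44, and from 6.18 through 6.405 to 6.58, with a difference of -0.060 (SE 0.068). The probe sets of Cks1b thus had opposite signs, neither beyond its error.

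**Figure D3:**
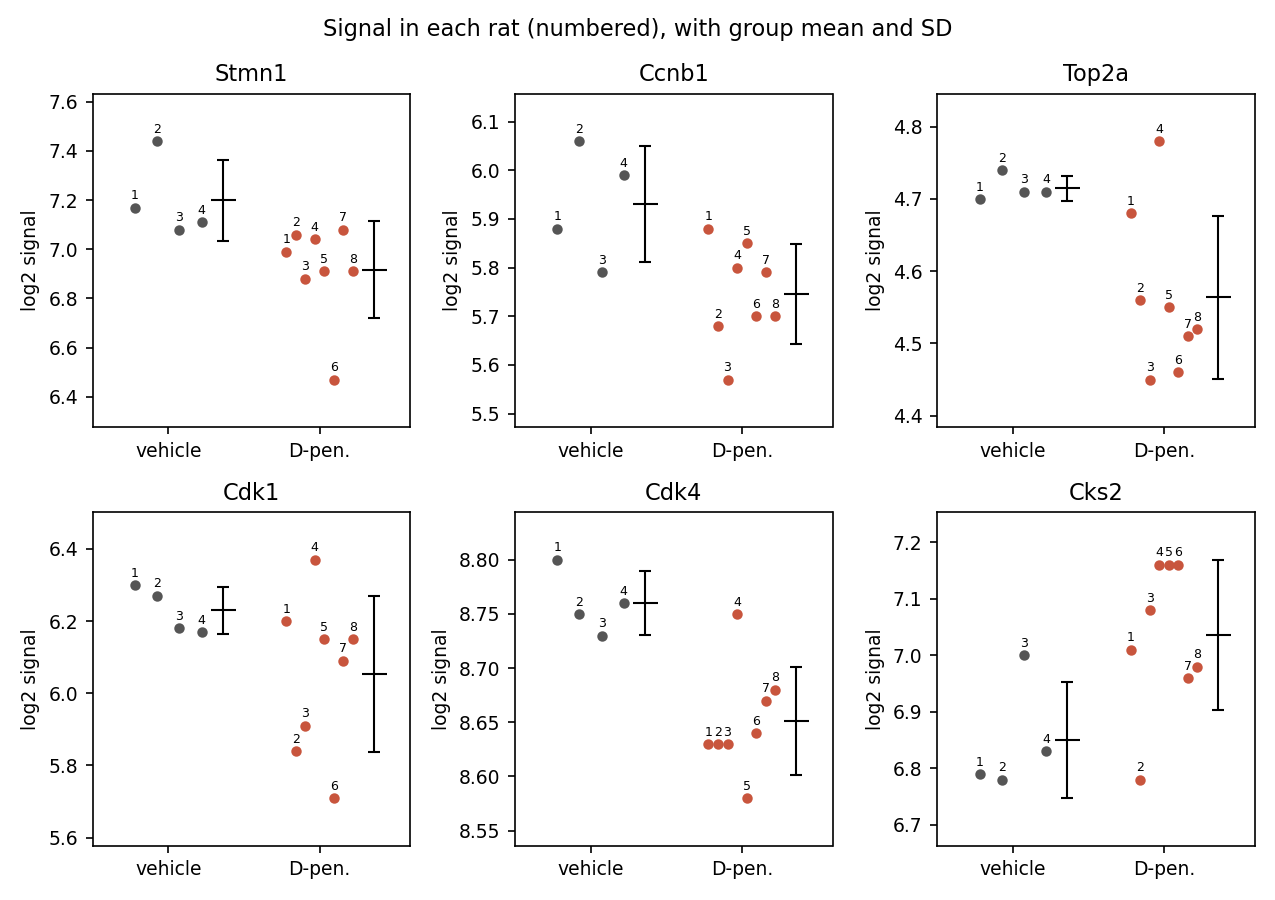
Log2 signal (vertical axis, a separate scale in each panel) of 6 members in each vehicle rat (grey, n = 4) and each D-penicillamine rat (red, n = 8), numbered as in the labels, with the group mean and SD beside the points. Ccnb1 is probe set 1370346_at and Top2a is 1388650_at. Treated rats spread more widely than vehicle rats for Top2a and Cdk1, with rat 6 low and rat 4 high, and the groups overlap or touch in each panel.

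The remaining members of G2 and mitosis differed by less than their error or close to it. Cdc20, which starts the break-up of mitotic cyclins, had 5 probe sets with differences between -0.090 and 0.035, and these correlated with each other at only -0.22 to 0.76 over the 12 rats. Cdc25b, a phosphatase that activates Cdk1, differed by 0.078 (SE 0.19) with an SD of 0.39 between vehicle rats and 0.37 between treated rats, among the widest spreads of the set. Aurka and Aurkb, kinases of the spindle pole and of the centromere, differed by -0.014 (SE 0.072) and -0.055 (SE 0.049). Plk1, a kinase with many roles in mitosis, differed by -0.045 (SE 0.074). Bub1b, a part of the checkpoint that holds cells until chromosomes are attached, differed by 0.0063 (SE 0.054), and Birc5, the survivin subunit of the complex that holds Aurkb, by -0.028 (SE 0.071).

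The low values of this group were not shared evenly by the treated rats. The median deviation of the 23 probe sets of G2 and mitosis from their mean over 12 rats was -0.16 in D6, -0.12 in D2 and -0.093 in D3, while it was 0.091 in D4, 0.066 in D1 and between -0.012 and 0.038 in D5, D7 and D8. In V1 to V4 it was 0.073, 0.074, -0.018 and 0.021. D6 was the lowest of the 12 rats in 11 of the 23 probe sets (47.8%), against 10.9% of all probe sets, D2 in 6 (26.1%, against 6.78%) and D3 in 4 (17.4%, against 5.21%). D4 was the highest in 8 (34.8%, against 15.0%), although it was the lowest rat in 22.5% of all probe sets. The SD between treated rats exceeded that between vehicle rats in 19 of the 23 probe sets (82.6%), against 66.8% of all probe sets and 6 of 11 of the replication genes (54.5%).

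Rats D6, D2 and D3 were also low in other mitotic genes, and D6 was low in some other roles but not in all. With 1 median over genes for each rat, the members of G2 and mitosis stood at -0.19 in D6, -0.12 in D2, -0.10 in D3 and 0.099 in D4. Over 29 genes of mitosis and the spindle outside the set it was -0.087 in D6, -0.059 in D3 and -0.033 in D2, the lowest 3 of the 12 rats, while D4 at 0.011 lay below V1, V2, D1 and D5. The replication members stood at -0.051, -0.044 and -0.015 in D6, D2 and D3, and the G1 members at -0.066, -0.025 and 0.013. Over 25 genes of origin licensing and replication outside the set D6 had -0.076, while D2 and D3 had -0.00083 and 0.0075. D6 was thus the lowest of the 12 rats in each of these lists, but not in the rest. It had 0.0054 for the inhibitor members and 0.019 for CDK inhibitors and quiescence genes. For E2F partners and G1 regulators it had 0.038, the highest of the 12 rats. Over all 10 probe sets of the G1 members D6 had -0.021, above V1 at -0.115 and D1 at -0.088. Markers of lymphocytes, 13 measured of 16 listed, had median deviations of -0.0025, -0.052 and -0.0092 in D6, D3 and D2 and of 0.047 in D4, and their mean signal ran from 5.71 to 5.81 in vehicle rats and from 5.71 to 5.90 in treated rats. Erythroid and marrow markers, 7 measured of 15, had -0.068, -0.024 and -0.078 in D6, D3 and D2 and 0.17 in D4, with mean signals of 7.31 to 7.74 and 7.22 to 7.76. Other rats lay as far out in both marker lists. For lymphocytes D7 was lowest at -0.073 and D1 highest at 0.117. For erythroid and marrow markers D1 was lowest at -0.124 and V1 highest at 0.192, while V3 and V4 had -0.0775 and -0.08. The 3' minus 5' difference was 0.565, 0.56 and 0.505 in D6, D3 and D2. The part of these markers in the spread between rats was not tested.

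**Figure D4:**
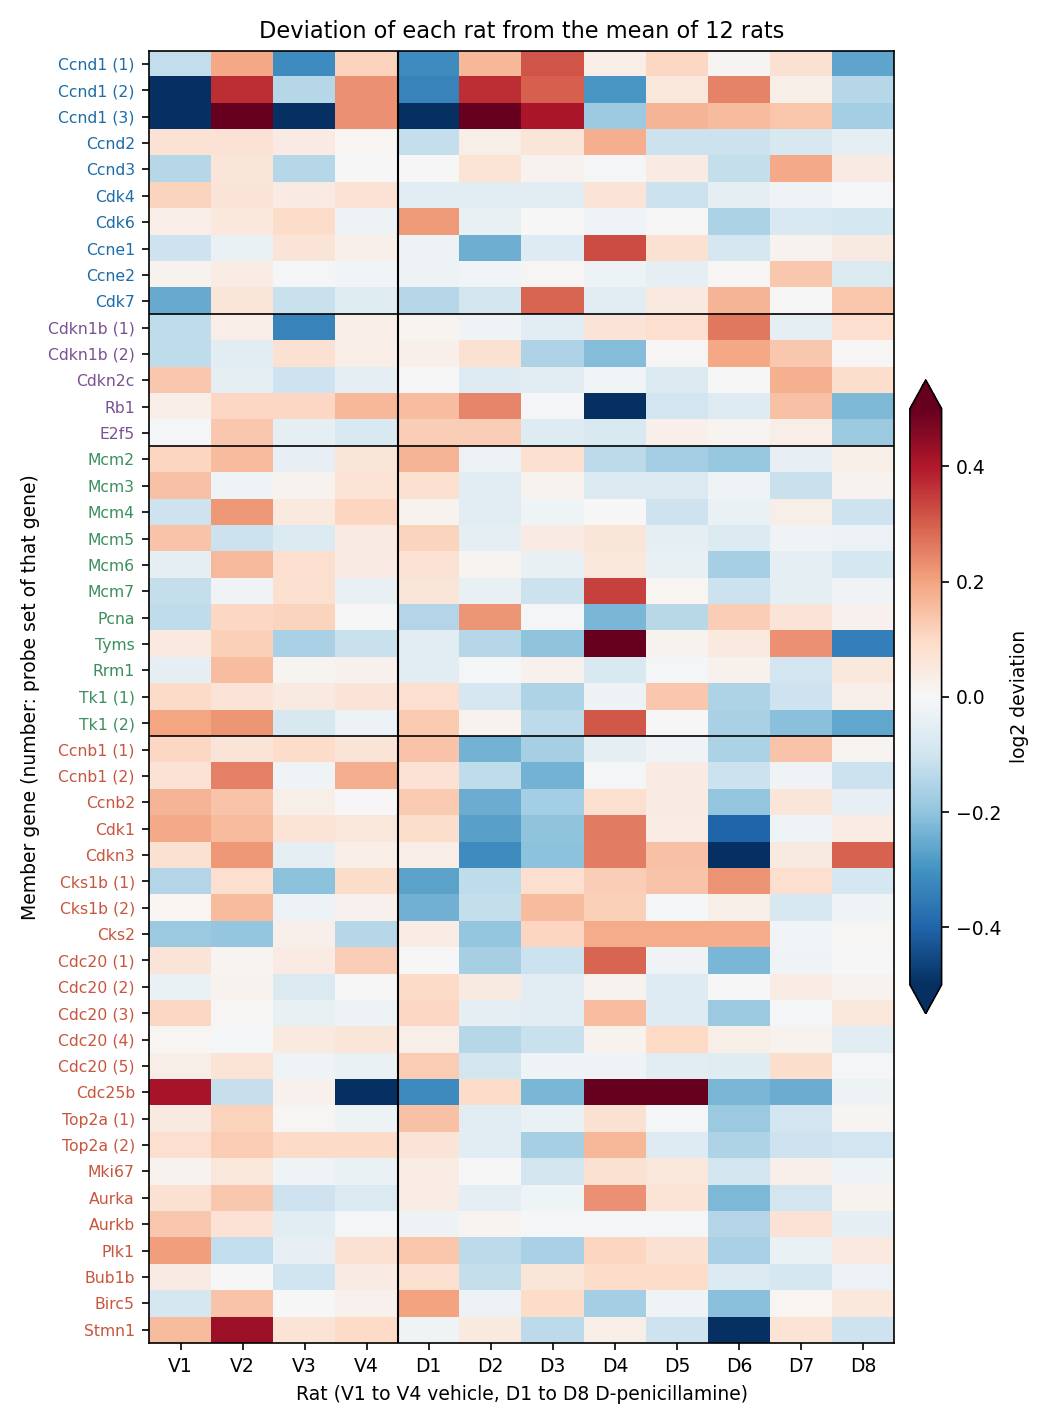
Deviation of each rat (columns) from the mean of 12 rats for each of the 49 member probe sets (rows, ordered by role), on the log2 scale, red above and blue below the mean; values beyond 0.5 in either direction have the colour at the end of the scale. In the rows from Ccnb1 to Cdkn3, D2, D3 and D6 are blue, D4 is mostly red, and the vehicle rats are mostly pale red.

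Co-variation between rats was measured for 10 pairs of members over 12 rats, after the group means had been removed. The permutation tests used 100000 resamples and were adjusted over the 10 pairs. The pairs were chosen with earlier results of these data known. Of the 10 pairs, 2 passed, and both hold Cdk1. The resamples exchanged values between the groups, although treated rats spread more widely. The SD was 0.22 against 0.065 in vehicle rats for Cdk1, and 0.29 against 0.11 for Cdkn3. The permutation p-values over 12 rats are therefore approximate and may be too small. Cdk1 and Cdkn3 correlated at r = 0.919 (permutation p = 3e-05, adjusted p = 0.0003) and rho = 0.869 (adjusted p = 0.0049), and at 0.857 without D4 and D6, the 2 rats farthest from the median of Cdk1. Leaving out each rat in turn gave r between 0.862 and 0.952. Cdk1 and Top2a (1372186_a_at) correlated at r = 0.786 (permutation p = 0.0028, adjusted p = 0.014) and rho = 0.844 (adjusted p = 0.0049), and at 0.603 without D4 and D6. This second relation rests in part on D6, without which r was 0.648 with an adjusted p of 0.152. Over the 8 treated rats alone r was 0.801 (permutation adjusted p = 0.0812).

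The other 8 pairs did not pass. Top2a and Mki67 had r = 0.671 and rho = 0.662 (permutation p = 0.0168 and 0.0229, adjusted p = 0.0561 and 0.0764), and r = 0.539 without D1 and D6. Cdk1 and Ccnb1 had r = 0.53 and rho = 0.56 (adjusted p = 0.194 and 0.151). Ccnb1 with Stmn1 and with Cdc20 had r = 0.422 and 0.376. Among the replication genes Mcm6 and Mcm2 had r = 0.365, which was -0.173 without D1 and D6, and Mcm6 and Pcna had -0.14. Ccnd1 and Cdk4, partners in 1 complex, had r = -0.479 (adjusted p = 0.228). Cks2 and Cks1b had r = 0.359. For the last 6 pairs the adjusted p of r was between 0.228 and 0.659, and rho lay between -0.345 and 0.522 with adjusted p between 0.168 and 0.802. All members of a pair share the array of each rat.

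**Figure D5:**
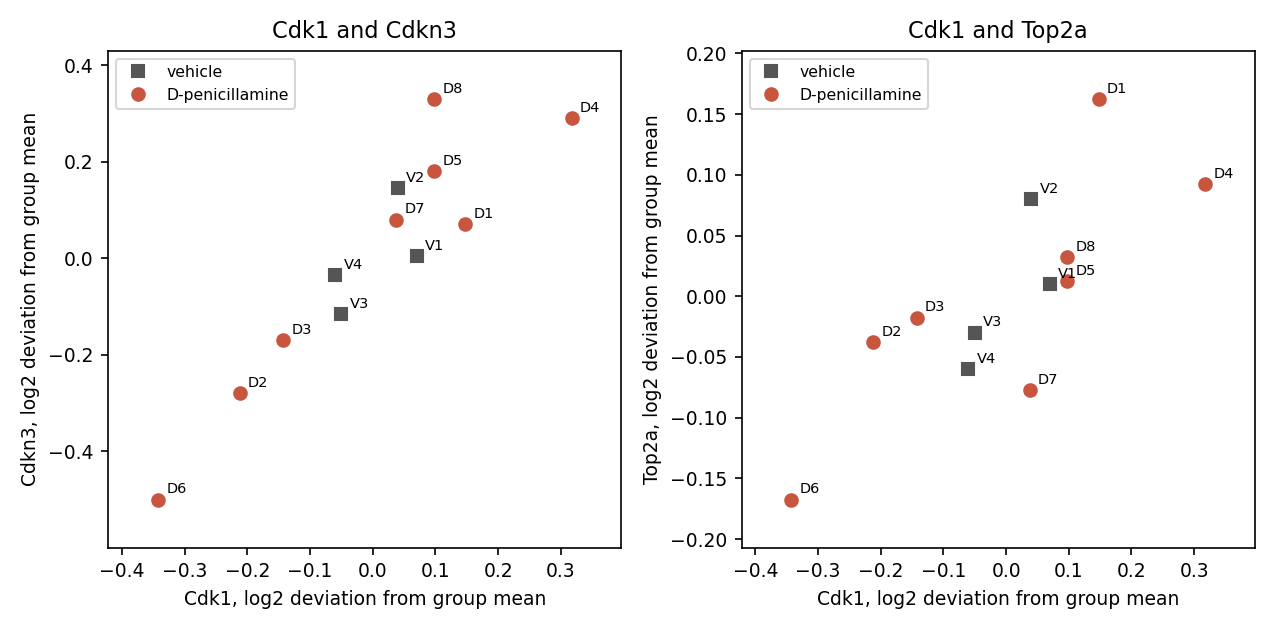
Deviation of each rat from its group mean on the log2 scale for Cdk1 (horizontal axes) against Cdkn3 (left) and Top2a, probe set 1372186_a_at (right), with vehicle rats as grey squares and D-penicillamine rats as red circles. The 12 rats follow a rising line on the left (r = 0.919), with D6 at the lower and D4 at the upper end, and scatter more widely on the right (r = 0.786).

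Other cell cycle genes gave the same picture of small differences. The lists held 148 further genes, of which 90 were measured by 113 probe sets. None passed the adjusted threshold, 1 probe set was higher and 8 were lower at an unadjusted p under 0.05, beside 2.68% and 3.48% of all probe sets, and their median difference was -0.0038. By list, 4 of 30 probe sets of origin licensing and replication were lower at that p and none higher, as were 1 of 38 of mitosis and the spindle and 1 of 22 of CDK inhibitors and quiescence genes. In the list of E2F partners and G1 regulators 2 of 23 were lower and 1 higher. Of the 38 probe sets of mitosis and the spindle 26 had a negative difference, with a median of -0.029. Origin licensing and replication did not share the lean of the replication members, with 15 lower, 15 higher and a median of -0.0013. Among CDK inhibitors and quiescence genes 6 were lower and 15 higher, with a median of 0.037, and among E2F partners and G1 regulators 11 were lower and 12 higher, with a median of 0.0050.

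The 6 genes with the smallest p of these lists included 4 of DNA replication. Prim1, the catalytic subunit of primase, had signals of 5.97, 6.08, 6.16 and 6.16 in V1 to V4, and from 5.71 through 5.895 to 5.96 in the treated rats. The groups did not overlap, though V1 and the highest treated rat lay close. The difference was -0.22 (SE 0.055, unadjusted p = 0.0012, adjusted p = 0.556 in limma). Rfc4, a subunit of the loader that places Pcna on DNA, had 5.44, 5.50, 5.60 and 5.50, and from 5.22 through 5.335 to 5.38, again without overlap. Its difference was -0.19 (SE 0.045, unadjusted p = 0.00077, adjusted p = 0.556). On leaving out each rat in turn, the differences of Prim1 and Rfc4 ranged from -0.26 to -0.20 and from -0.21 to -0.16. Since the groups did not overlap, leaving out 1 rat could not turn the sign. Rpa3, a subunit of the protein that covers single-stranded DNA, differed by -0.26 (SE 0.098), and Dnmt1, which copies DNA methylation after replication, by -0.12 (SE 0.048), or -0.090 without V3. Myc, a factor that drives growth, differed by -0.25 (SE 0.10), or -0.16 without V3. Max, its partner, differed by 0.18 (SE 0.063), or 0.12 without V3, and by 0.045 (SE 0.082) on its other probe set. These 4 genes had adjusted p between 0.715 and 0.754.

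Markers of other cells of the liver were set beside these values, since stellate cells and macrophages can divide or expand while hepatocytes rest. Of 13 probe sets of stellate cell and fibroblast markers 11 were lower after D-penicillamine, beside 50.8% of all probe sets, and 5 had an unadjusted p under 0.05 on the lower side, beside 3.48%, with a median difference of -0.17. With 1 probe set per gene, 4 of 10 genes had such a p. The mean signal over the 10 genes ran from 6.64 to 6.90 in vehicle rats and from 6.45 to 6.78 in treated rats. D4 was lowest by this mean, while D5 and D7 were lowest by the median deviation (-0.085 in each, -0.041 in D4). By that deviation V1 and V4 stood high, at 0.275 and 0.21. V2 and V3, at -0.05 and 0.00375, lay among the treated rats. The 7 measured Kupffer cell and macrophage markers were all higher, 3 of them at an unadjusted p under 0.05, beside 2.68% of all probe sets, with mean signals of 8.24 to 8.47 and 8.34 to 8.53. None of these probe sets passed the adjusted threshold. The part of these markers in the differences of the cell cycle genes was not tested.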

How the data were processed

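Total RNA of frozen liver (10 µg per rat) was measured on 1 array per rat. Per the submitters' processing notes the authors made the deposited log2 values with RMA, which corrects background, normalizes arrays by quantiles and summarises probe sets; its version is not given in the sources used here. Quantile normalization hides a shift shared by most transcripts, and RMA values carry no detection call. The number of arrays limits the precision. The deposited scan records gave only chip lot, day and order of scanning (1 lot, 1 day), per the file headers. Of 15923 probe sets, 57 array controls were left out. Among the 15866 tested, 12783 had 1 gene symbol, 312 several and 2771 none in the platform annotation, with symbols updated through gene identifiers to RefSeq of GRCr8.

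Differences were fitted for all probe sets with limma 3.58.1 (R 4.3.3; lmFit on group, eBayes, two-sided, Benjamini-Hochberg over all, threshold 0.05), and the fit was tested on simulated data. Correlations used Python 3.11.15 with scipy 1.17.1. The members, gene lists and pairs were chosen with earlier results of these data known. Every measured member is named; all values are given for members with an unadjusted p under 0.05 and for 13 fixed members, and Ccnb2 and Cdkn3 were added after their values were seen, as were the per-rat values of Cdk1. Of the other lists, the 6 genes with the smallest p are named. Rat numbers 1 to 4 are shared by both groups in the labels. Same-numbered rats correlated in their deviations at 0.21, -0.15, 0.19 and -0.15. With so few rats this check cannot settle whether the numbers pair them. Alternatives were array weights, an intensity trend or robust prior, median centring, a second quantile step, only the brighter probe sets, the 3' minus 5' difference as covariate, a replicate block, and leaving out rats.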

Additional observations from a re-analysis of the deposited data

Results flagged for a closer look

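A rat far from the rest of its group was found for 6 members, all in treated rats, out of 98 groups examined (49 probe sets in 2 groups of rats). Chance gives such a gap in about 1 group in 20 where groups are independent. The probe sets share the same rats, so the 6 treated and 0 vehicle groups flagged cannot be judged against that rate. Stmn1 had a signal of 6.47 in D6, with the next lowest treated rat at 6.88, a gap of 0.672 of the range of the group. The same rat had the highest treated value of Cdkn1b on 1369192_at, at 5.95 against 5.77 in the next rat. D4 was highest for Mcm7, at 7.82 against 7.54, and for Cdc20 on 1370294_a_at, at 6.68 against 6.39. Cdk6 reached 5.99 in D1, with the next rat at 5.78. Ccne2 reached 4.26 in D7, with the next rat at 4.13.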

How the results depend on the processing

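No member passed the adjusted threshold in any setting, the smallest adjusted p among members being 0.177 with array weights. Over all probe sets, 2 passed with array weights, 0 to 1 on leaving out each rat (1 without D1) and 0 otherwise. The count of member probe sets at an unadjusted p under 0.05 was 5 as reported, 13 with array weights, 8 without V3 and D4 together, 3 on the brighter probe sets, 2 with the replicate block and 3 to 8 on leaving out each rat (3 without V2, 8 without D1 or D4). The median difference of the members was between -0.053 and -0.013 elsewhere and -0.046 to -0.020 on leaving out each rat, but 0.020 on the brighter probe sets; the same 19 probe sets have that median in the reported fit, so the choice of probe sets makes the change. With the replicate block over rats 1 to 4, which leaves out D5 to D8, it was -0.0125. The same 8 rats without the block gave -0.0125 and 2 probe sets, an addition made after seeing the data. The block changed no call, while the smallest adjusted p over all probe sets in limma was 0.265 with it and 0.919 without it. Whether the numbers pair the rats was not settled.

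Signs that turned belonged to differences within their error, and the cause was not tested: Pcna was 0.0049 with array weights and 0.027 without V3 and D4, Ccnd1 (1371150_at) -0.015 with the 3' minus 5' covariate and -0.048 without V3 and D4, Cdkn1b (1373812_at) -0.050 and Cks1b (1371480_at) -0.0025 with the block and in the same rats without it, and Cks1b -0.0024 without V3 and D4. On leaving out each rat, Ccnd1 ran from -0.045 to 0.125 (1371150_at), from -0.12 to 0.23 (1371643_at) and from -0.0017 to 0.41 (1383075_at), Cdkn1b (1373812_at) from -0.0096 to 0.058 and Mki67 from -0.019 to 0.011. The pairs of members past the threshold were 2 as reported, 1 in treated rats only, and 1 to 3 on leaving out each rat (1 without D6, 3 without D3 or D7), settings added after seeing the data; r of Cdk1 and Cdkn3 passed in each setting run. Dim signals and 4 vehicle rats limit what could be seen.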
